A study of Mus musculus with 9 samples.

Results

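The subject here is a set of 10 transcription factor genes that guide dendritic cell lineages: Id2, Batf2, Batf3, Zeb2, Zbtb46, Tcf4, Bcl6, Nfil3, Spi1 and Runx3. They were taken by gene symbol from the deposited counts, and all 10 were found among 40879 symbols. All 10 also passed the filter on low counts, which left 13251 genes for testing. The cells were mouse type 2 conventional dendritic cells (cDC2s). They were isolated by FACS out of 9-day marrow cultures grown with Flt3L at 100 ng/ml, a cytokine that drives dendritic cell development. The 3 groups held 3 libraries each. The A20iKO libraries came from mice described as A20fl/fl x CD11ccre, in which a floxed A20 gene meets a Cre driven by CD11c, a gene active in dendritic cells and some other myeloid cells. The WT+IFNa libraries came from wild-type cultures given interferon alpha on day 5, and the WT libraries from wild-type cultures named without it. The treatment protocol names the interferon for every sample, while the titles and the treatment label name it only for WT+IFNa. The absence of interferon from A20iKO and WT cultures rests on the latter. The 15 interferon-stimulated genes listed summed to 992 to 1220 CPM in A20iKO, 3205 to 3817 CPM in WT+IFNa and 247 to 374 CPM in WT. Of these, 11 rose in A20iKO against WT, 10 fell in A20iKO against WT+IFNa and 15 rose in WT+IFNa against WT. Among all genes tested, 5.77%, 3.41% and 2.4% did so in the same order (edgeR adjusted p under 0.05). The part of the interferon-stimulated genes in the changes of the factors was not tested. Whether a library holds cells of a single mouse was not given, so p-values measure the spread between libraries, which may be partly technical. Ages and strains were not given.

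These factors form a network of mutual control. Id2 blocks E proteins such as the Tcf4 product E2-2, which drives plasmacytoid dendritic cells (pDCs), while the repressor Zeb2 favours pDC and monocyte fates and represses Id2. Nfil3 represses Zeb2 and with Batf3 and Irf8 sets up type 1 conventional dendritic cells (cDC1s), whereas Irf4, Klf4 and Notch2 act in cDC2s. Zbtb46 marks committed conventional dendritic cells, Spi1 encodes the myeloid master factor PU.1, and Runx3 is needed for a subset of cDC2s and for Langerhans cells.

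Total counts ranged from 6900598 to 10552756 per library. A long noncoding RNA, Gm26917, took 12.3% to 13.8% of counts in A20iKO, 12.2% to 17.3% in WT+IFNa and 5.21% to 11.4% in WT. Mitochondrial mRNAs took 1.73% to 2.15% in A20iKO, 1.04% to 1.24% in WT+IFNa and 1.61% to 1.90% in WT. WT thus lay apart from both other groups in the first and WT+IFNa in the second. With Gm26917 left out of the fit, 4 of the 10 factors passed an edgeR adjusted p of 0.05 in A20iKO against WT. The count was 4 in A20iKO against WT+IFNa and 0 in WT+IFNa against WT, the same as with Gm26917 kept in. The part of the mitochondrial share in the results was not tested. Tnfaip3, which encodes A20, held 285, 476 and 377 counts in the A20iKO libraries, 73, 84 and 74 in the WT+IFNa libraries and 232, 51 and 42 in the WT libraries. Its 3′ reads showed no loss and were higher in A20iKO, by 1.95 on the log2 scale against WT (edgeR adjusted p = 0.028) and 2.19 against WT+IFNa (edgeR adjusted p = 0.0257). Both calls were lost without A20iKO replicate 2 (edgeR adjusted p = 0.113 and 0.11) or 3 (0.0645 and 0.0633). The first was lost without WT replicate 2 (0.0718) or 3 (0.0776), and the second without WT+IFNa replicate 1 (0.114), 2 (0.102) or 3 (0.0641). These reads do not check the deletion, since the position of the tag relative to the floxed exons was not given. Col1a1, a collagen gene of stromal cells, stood at 2720 CPM in A20iKO replicate 1, 3105 CPM in WT+IFNa replicate 3 and 2750 CPM in WT replicate 2, against 286 to 1475 CPM in the other 6. Sirpa, a cDC2 marker, was read in every library, at 418 to 476 CPM in A20iKO, 195 to 199.8 CPM in WT+IFNa and 145 to 216 CPM in WT. It was among the 2 of 13 cDC2 markers that rose in A20iKO against WT, while 6 fell (5.77% and 4.91% of all genes). Cd209a, a lectin gene of cDC2s, was lower in the A20iKO libraries, at 6.31 to 14.9 CPM, against 96.4 to 135 CPM in WT+IFNa and 259 to 379 CPM in WT.

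Levels are given as CPM, the usual depth-scaled count, after TMM scaling of the library totals. The library kit reads the 3′ end of each transcript, so levels of different genes can be compared without a length term. A change was called at an edgeR Benjamini-Hochberg adjusted p under 0.05 over all genes tested. In A20iKO against WT, 4 of the 10 factors passed, 3 lower (Id2, Bcl6 and Zbtb46) and 1 higher (Tcf4), where 10.7% of all genes passed, 4.91% lower and 5.77% higher. In A20iKO against WT+IFNa, 4 passed as well, 3 lower (Id2, Bcl6 and Zbtb46) and 1 higher (Runx3), where 5.46% of all genes passed, 3.41% lower and 2.05% higher. In WT+IFNa against WT, edgeR called 0 of 10, as did DESeq2 and limma-voom, where edgeR called 3.1% of all genes, 2.4% higher and 0.702% lower. At an unadjusted p under 0.05 the count was 3 of 10 in that comparison (Id2, Tcf4 and Runx3), against 12.7% of all genes. The A20iKO and WT+IFNa comparisons with WT share their WT libraries, so their values are set side by side without a measure of likeness.

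**Figure D1:**
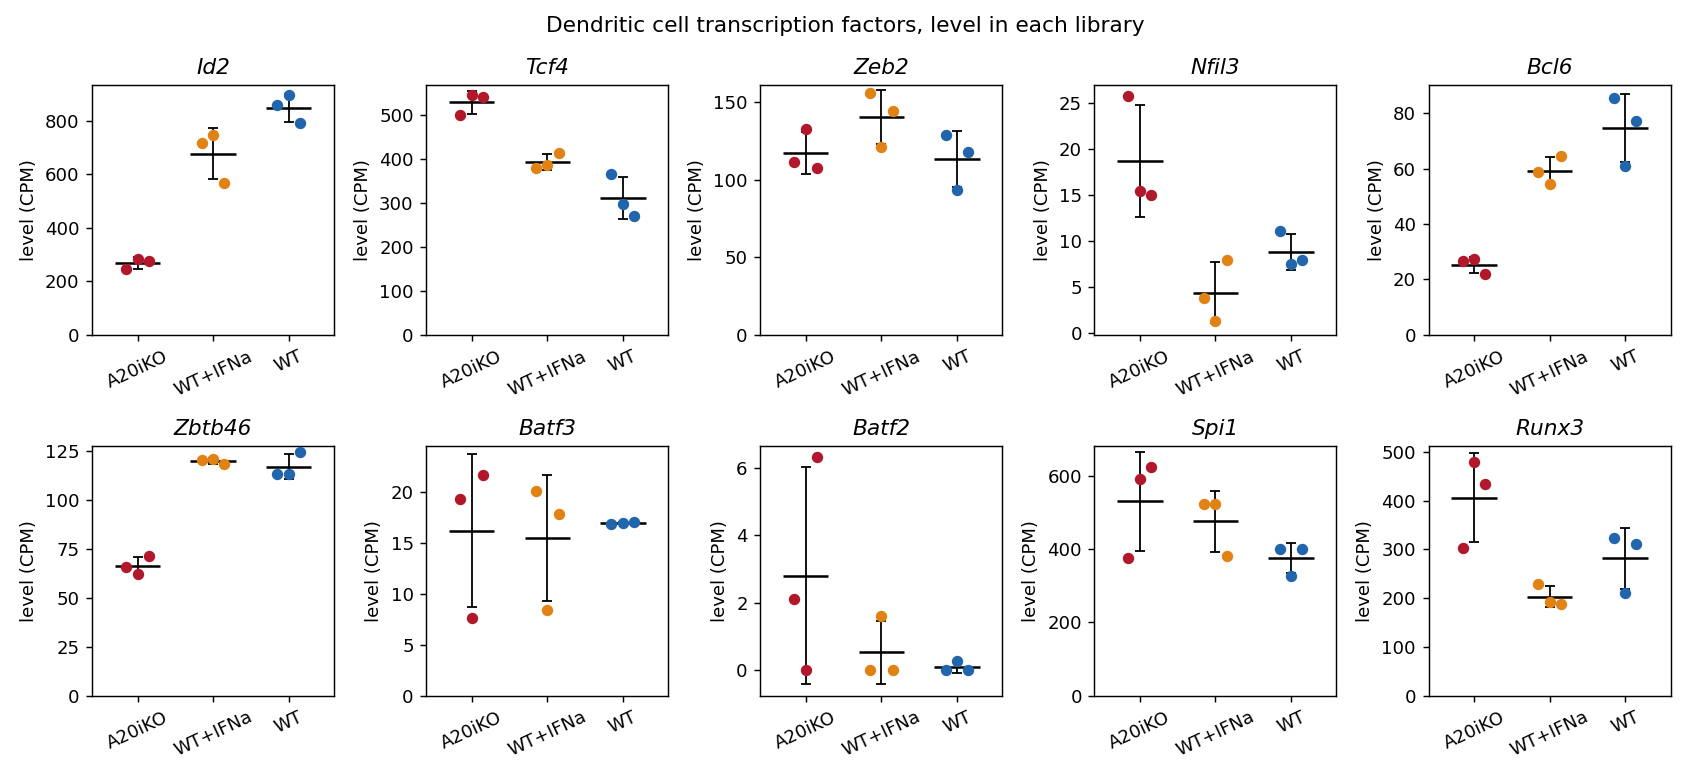
Level in CPM (vertical axis, linear) of each of the 10 factors in the A20iKO, WT+IFNa and WT libraries; points are libraries in replicate order, horizontal bars are means and error bars are SD (n = 3). Id2, Bcl6 and Zbtb46 lie lower in every A20iKO library than in any other library, and Tcf4 lies higher.

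The median log2 fold change of the 10 factors was 0.27 in A20iKO against WT, where the median of all genes was -0.01. It was 0.11 against 0.02 in A20iKO against WT+IFNa, and -0.05 against -0.02 in WT+IFNa against WT. The list thus had no common direction. Between 2 groups, libraries did not overlap for 5 of 10 factors in A20iKO against WT, where 28% of all genes did not (15.4% higher and 12.6% lower). The same held for 6 of 10 in A20iKO against WT+IFNa, where the share of all genes was 24.6% (12.3% in each direction). It held for 2 of 10 in WT+IFNa against WT, where the share was 18.2%. Of these, Tcf4 was higher, as were 9.77% of all genes, and Id2 lower, as were 8.45%.

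Id2 encodes an inhibitor of DNA binding that lacks a DNA-binding region of its own and holds E proteins inactive. Its level was 245, 284 and 276 CPM in the A20iKO libraries, 719, 748 and 568 CPM in the WT+IFNa libraries and 859, 896 and 792 CPM in the WT libraries. Every A20iKO library lay below every other library, and every WT+IFNa library lay below every WT library. Id2 fell by 1.66 on the log2 scale in A20iKO against WT (SE 0.142, edgeR adjusted p = 7.58e-06). Against WT+IFNa it fell by 1.34 (SE 0.14, edgeR adjusted p = 8.84e-05). The difference of WT+IFNa from WT was -0.32 (SE 0.138, edgeR adjusted p = 0.334) and did not pass. In bulk RNA of sorted cells, fewer cells of a type and less RNA per cell cannot be told apart.

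Tcf4, the gene of the E protein E2-2 that Id2 opposes, moved the other way. It stood at 500.1, 547 and 541 CPM in the A20iKO libraries, 379.6, 388 and 413 CPM in the WT+IFNa libraries and 366, 298 and 271 CPM in the WT libraries. The 3 groups were fully ordered, A20iKO above WT+IFNa and WT+IFNa above WT, without overlap. Tcf4 rose by 0.76 on the log2 scale in A20iKO against WT (SE 0.141, edgeR adjusted p = 0.00318), a 1.7-fold difference. The difference of A20iKO from WT+IFNa was 0.43 (SE 0.141, edgeR adjusted p = 0.114), and that of WT+IFNa from WT was 0.34 (SE 0.141, edgeR adjusted p = 0.319). Neither passed. The first passed with library totals as the only scaling (edgeR adjusted p = 0.0271), with DESeq2 (0.0192) and with only the 2 groups in the fit (edgeR adjusted p = 0.0469).

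The ratio of Id2 to Tcf4 counts within a library does not depend on how libraries are scaled. On the log2 scale it was -1.03, -0.94 and -0.97 in the A20iKO libraries, 0.92, 0.95 and 0.46 in the WT+IFNa libraries and 1.23, 1.59 and 1.55 in the WT libraries. Tcf4 tags therefore outnumbered Id2 tags in all 3 A20iKO libraries, and Id2 tags outnumbered Tcf4 tags in the other 6. The mean difference was -2.44 for A20iKO minus WT, -1.76 for A20iKO minus WT+IFNa and -0.68 for WT+IFNa minus WT. Each gave a two-sided exact permutation p of 0.1, the smallest that 3 against 3 libraries allow, so no such test could pass 0.05. Over the 9 tests of 3 ratios in 3 comparisons the adjusted exact p of each of these was 0.129.

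**Figure D2:**
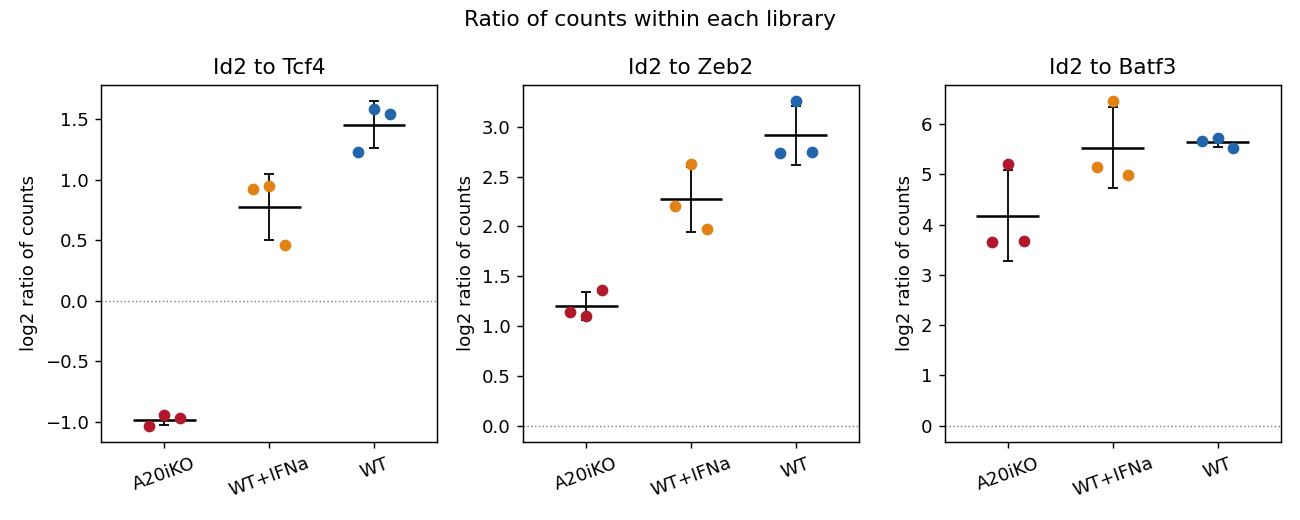
Log2 ratio of counts within each library (vertical axis) for Id2 to Tcf4, Id2 to Zeb2 and Id2 to Batf3 in A20iKO, WT+IFNa and WT; points are libraries, horizontal bars are means, error bars are SD (n = 3) and the dotted line marks equal counts. The Id2 to Tcf4 ratio lies below 0 in the 3 A20iKO libraries and above 0 in the other 6.

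Zeb2 encodes a zinc-finger repressor. It had 111, 133 and 108 CPM in the A20iKO libraries, 156, 121 and 144 CPM in the WT+IFNa libraries and 129, 93.6 and 118 CPM in the WT libraries. All 3 groups overlapped. Its log2 difference was 0.05 in A20iKO against WT (SE 0.179, edgeR adjusted p = 0.927), -0.26 in A20iKO against WT+IFNa (SE 0.179) and 0.31 in WT+IFNa against WT (SE 0.179), and none passed. The antisense gene Zeb2os, which overlaps it, held 263 to 282 counts in A20iKO, 148 to 301 in WT+IFNa and 167 to 266 in WT. As the strand setting was not given, reads of Zeb2 and Zeb2os may not be fully separated. The Id2 to Zeb2 ratio was 1.14, 1.10 and 1.36 on the log2 scale in A20iKO libraries, 2.21, 2.63 and 1.98 in WT+IFNa libraries and 2.74, 3.26 and 2.75 in WT libraries. These 3 ranges did not overlap (two-sided exact permutation p = 0.1 in each comparison).

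Nfil3, the repressor that acts above Zeb2 in cDC1 specification, was a low-level gene. It had 25.8, 15.4 and 15 CPM in the A20iKO libraries, 3.81, 1.27 and 7.88 CPM in the WT+IFNa libraries and 11.1, 7.49 and 7.92 CPM in the WT libraries. The A20iKO libraries lay above all others, and WT+IFNa and WT overlapped. The log2 difference was 2.12 in A20iKO against WT+IFNa (SE 0.604) and missed the threshold (edgeR adjusted p = 0.0635). It passed there with DESeq2 (adjusted p = 0.0114), with limma-voom (0.0436), with no low-count filter (edgeR 0.0184) and without WT+IFNa replicate 3 (edgeR 0.0315). Against WT the difference was 1.08 (SE 0.581, edgeR adjusted p = 0.311). WT+IFNa differed from WT by -1.04 (SE 0.591, edgeR adjusted p = 0.526).

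Batf3 encodes the AP-1 family partner of Irf8 that sustains cDC1s. It had 19.3, 7.6 and 21.7 CPM in the A20iKO libraries, 20.2, 8.46 and 17.8 CPM in the WT+IFNa libraries and 16.9, 17 and 17.1 CPM in the WT libraries. Replicate 2 stood low in the A20iKO and WT+IFNa groups, with 67 and 73 counts, while the other 7 libraries held 120 to 206. The log2 difference was -0.07 in A20iKO against WT (SE 0.449, edgeR adjusted p = 0.963), 0.07 in A20iKO against WT+IFNa (SE 0.449) and -0.13 in WT+IFNa against WT (SE 0.449). The Id2 to Batf3 ratio on the log2 scale was 3.66, 5.22 and 3.67 in A20iKO, 5.15, 6.46 and 4.99 in WT+IFNa and 5.67, 5.72 and 5.53 in WT. Its ranges overlapped between A20iKO and WT+IFNa (two-sided exact permutation p = 0.3).

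Batf2, a paralog that can stand in for Batf3, was nearly unread in most libraries. It held 16, 0 and 60 counts in the A20iKO libraries, 0, 14 and 0 in the WT+IFNa libraries and 0, 2 and 0 in the WT libraries. Most of its reads thus came from A20iKO replicate 3, and A20iKO replicate 2 had none. Summed over libraries, the A20iKO to WT ratio was 40.3 (95% exact interval 10.8 to 339), from 76 and 2 counts, and the WT+IFNa to WT ratio was 7.85 (1.8 to 71.2), from 14 and 2 counts. These intervals cover counting error only. With the spread between libraries taken in, no comparison passed, with edgeR adjusted p of 0.281 in A20iKO against WT, 0.733 in A20iKO against WT+IFNa and 0.761 in WT+IFNa against WT.

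Bcl6, a repressor that favours cDC1s and acts also in cDC2s and in germinal centre B cells, had 26.5, 27.3 and 22 CPM in the A20iKO libraries, 58.8, 54.3 and 64.5 CPM in the WT+IFNa libraries and 85.4, 61.1 and 77.4 CPM in the WT libraries. The A20iKO libraries lay below all others, and WT+IFNa overlapped WT. Bcl6 fell by 1.56 on the log2 scale in A20iKO against WT (SE 0.215, edgeR adjusted p = 0.000365) and by 1.23 in A20iKO against WT+IFNa (SE 0.214, edgeR adjusted p = 0.00394). WT+IFNa differed from WT by -0.33 (SE 0.209, edgeR adjusted p = 0.581).

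Zbtb46, the zinc-finger gene that sets conventional dendritic cells apart from monocytes and pDCs, had 65.6, 62.4 and 71.4 CPM in the A20iKO libraries. It had 120.5, 121 and 118 CPM in the WT+IFNa libraries and 113, 114 and 125 CPM in the WT libraries. WT+IFNa and WT overlapped, and A20iKO lay below both. Zbtb46 fell by 0.82 on the log2 scale in A20iKO against WT (SE 0.155, edgeR adjusted p = 0.00382) and by 0.85 in A20iKO against WT+IFNa (SE 0.155, edgeR adjusted p = 0.00545). WT+IFNa differed from WT by 0.03 (SE 0.154). In the RefSeq annotation of GRCm38.p6, 5 other genes overlap its long locus. The most read of these in WT, Lime1, held 31 to 46 counts in A20iKO, 17 to 58 in WT+IFNa and 60 to 139 in WT, and how its reads were split from those of Zbtb46 was not given.

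Id2 and Bcl6 had the largest decreases among the factors, and their promoters are shown as reference for the motif search. Each line is the 250 bases before the first listed RefSeq start (build GRCm38.p6, minus strand, written 5′ to 3′ on the gene strand). The window is chr12:25096093-25096342 for Id2 and chr16:23988853-23989102 for Bcl6, and capitals mark a match to the gamma-activated site TTCNNNGAA, the pattern bound by STAT dimers and close to that of Bcl6 itself.
Id2: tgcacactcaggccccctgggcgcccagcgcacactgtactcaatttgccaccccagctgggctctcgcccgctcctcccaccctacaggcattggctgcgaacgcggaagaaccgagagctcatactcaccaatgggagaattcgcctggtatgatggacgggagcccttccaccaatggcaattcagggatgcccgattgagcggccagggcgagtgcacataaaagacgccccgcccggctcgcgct
Bcl6: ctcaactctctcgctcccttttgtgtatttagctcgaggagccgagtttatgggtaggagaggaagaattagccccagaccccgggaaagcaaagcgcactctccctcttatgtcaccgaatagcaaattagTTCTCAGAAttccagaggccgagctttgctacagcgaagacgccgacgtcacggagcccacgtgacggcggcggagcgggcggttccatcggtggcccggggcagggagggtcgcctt

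Promoter windows were listed for 7 of the 10 factors (Id2, Batf3, Zeb2, Zbtb46, Bcl6, Nfil3 and Runx3), 12 windows in all, and 8 motifs were searched on both strands, where a match could overlap another. TTCNNNGAA stood in windows of Bcl6, Zeb2 and Batf3, and in 7.02% of all 32851 RefSeq windows of that length. The shares given here are per window and cannot be set directly against a number of factors. Zeb2 had 4 windows and Bcl6 and Runx3 had 2 each. Windows 2 and 3 of Zeb2 overlapped and held the same TTCNNNGAA match. The second Bcl6 window held 3 matches. The E2-box CAGGTG, which Zeb proteins and E proteins bind, stood in windows of Zbtb46 and Runx3 and in 17.2% of all windows. The AP-1 site TGANTCA stood in windows of Zbtb46 and Zeb2 (6.75% of all), and the RUNX site TGTGGT in a Runx3 window (14% of all). No window of the 7 factors held the interferon-stimulated response element in its usual consensus (2.98% of all), the kappaB consensus (7.25%), the PU.1 site GAGGAAGT (2.44%) or the NFIL3 D-box TTANGTAA (2.06%). No motif listed here stood in the Id2 window. These are letter matches in a short window and describe no binding.

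Spi1 encodes PU.1, on which all dendritic cells and other myeloid cells depend. It had 375, 592 and 622 CPM in the A20iKO libraries, 524, 522 and 379 CPM in the WT+IFNa libraries and 399, 327 and 399.5 CPM in the WT libraries. The lowest library of each group was the library of highest Col1a1 in that group, and whether stromal RNA took part was not tested. The log2 difference was 0.50 in A20iKO against WT (SE 0.198, edgeR adjusted p = 0.147), 0.16 in A20iKO against WT+IFNa (SE 0.197, edgeR adjusted p = 0.83) and 0.34 in WT+IFNa against WT (SE 0.198, edgeR adjusted p = 0.54). Without these 3 libraries the first became 0.61 and passed (edgeR adjusted p = 0.00574). It passed as well without A20iKO replicate 1 alone (0.69, edgeR adjusted p = 0.0217) and with DESeq2 (adjusted p = 0.0496).

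Runx3, a runt-domain factor, was the only one of the 10 to pass between A20iKO and WT+IFNa and not between A20iKO and WT. It had 303, 479 and 434 CPM in the A20iKO libraries, 229, 192 and 189 CPM in the WT+IFNa libraries and 324, 209 and 311 CPM in the WT libraries. A20iKO lay above WT+IFNa without overlap, and WT overlapped with both. Runx3 rose by 1.00 on the log2 scale in A20iKO against WT+IFNa (SE 0.206, edgeR adjusted p = 0.0117). That call was lost without A20iKO replicate 2 (edgeR adjusted p = 0.0693), A20iKO replicate 3 (0.0537) or WT+IFNa replicate 2 (0.0578). The difference of A20iKO from WT was 0.53 (SE 0.204, edgeR adjusted p = 0.136), and that of WT+IFNa from WT was -0.47 (SE 0.204, edgeR adjusted p = 0.348). Against WT it passed with DESeq2 (adjusted p = 0.0459), without A20iKO replicate 1 (edgeR adjusted p = 0.041) and without the 3 libraries of highest Col1a1 (edgeR adjusted p = 0.038).

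**Figure D3:**
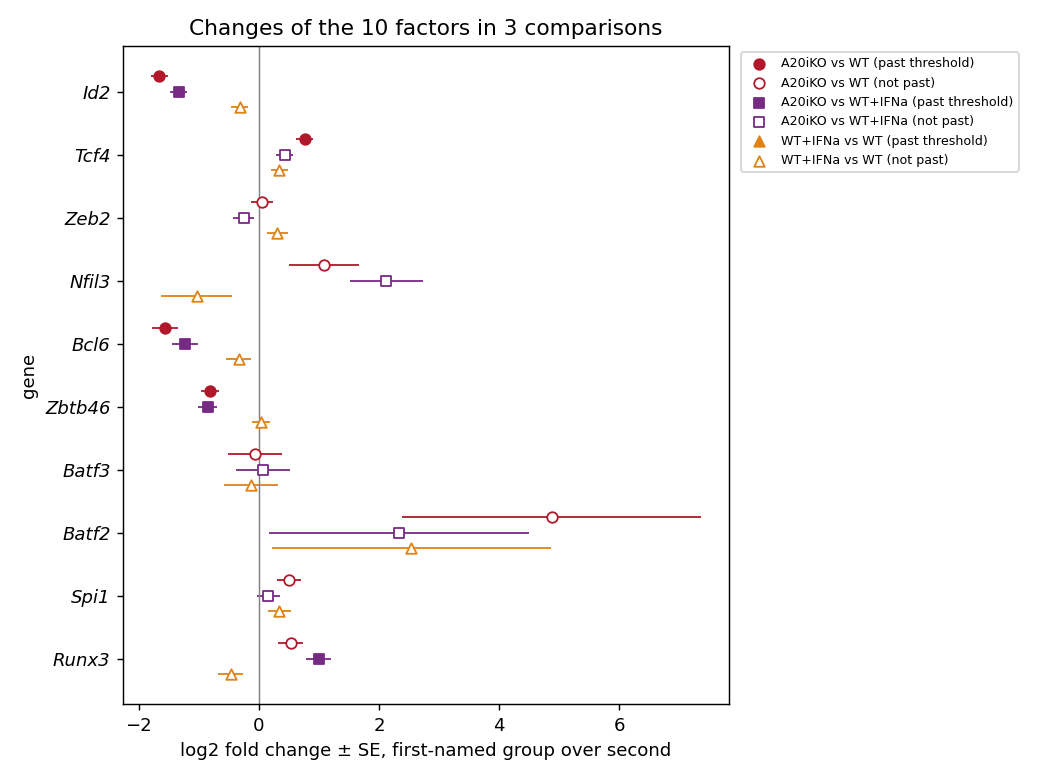
Log2 fold change (horizontal axis, first-named group over second) of each factor in A20iKO vs WT, A20iKO vs WT+IFNa and WT+IFNa vs WT; error bars are SE and filled symbols passed an edgeR adjusted p of 0.05. Id2, Bcl6 and Zbtb46 are filled to the left of 0 in the comparisons of A20iKO with WT and with WT+IFNa, and no symbol of WT+IFNa vs WT is filled.

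The order of levels among the 10 factors differed between the groups. In A20iKO, Spi1 (529.9 ± 135 CPM) and Tcf4 (529 ± 25.4 CPM) led and overlapped each other, followed by Runx3 (406 ± 91.3), Id2 (269 ± 20.8), Zeb2 (117 ± 13.6), Zbtb46 (66.5 ± 4.58) and Bcl6 (25.3 ± 2.87; SD, n = 3). Runx3, at 303 to 479 CPM there, also overlapped Spi1, at 375 to 622 CPM. Id2 led in WT+IFNa (678 ± 96.4 CPM) and in WT (849 ± 52.8 CPM), without overlap with the next gene, Spi1. In WT, Spi1 overlapped Tcf4, Tcf4 overlapped Runx3, and Zbtb46 overlapped Zeb2, so these neighbours were not separated beyond their spread. Bcl6, Batf3, Nfil3 and Batf2 took the last places in WT, in that order and without overlap. In A20iKO, Nfil3 overlapped Bcl6 and Batf3.

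The spread within groups, estimated from 3 libraries each and not tested, differed between the factors. The coefficient of variation of Tcf4 was 4.8% in A20iKO, 4.43% in WT+IFNa and 15.7% in WT, and that of Zbtb46 was 6.88%, 1.2% and 5.56% in the same groups. The median over genes of at least 10 CPM was 18.8% in A20iKO, 18.7% in WT+IFNa and 22.1% in WT. Batf3 varied by 46.6% in A20iKO and 40% in WT+IFNa, against 0.566% in WT, where it held 172, 127 and 168 counts. With such counts the counting error alone exceeds 0.566%, so this value does not measure the spread between WT libraries. The same holds for the 1.2% of Zbtb46 in WT+IFNa, from 797 to 1106 counts.

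Of 35 further transcription factors and regulators of the dendritic cell network, all tested, 6 rose and 9 fell in A20iKO against WT, where 5.77% of all genes were called higher and 4.91% lower. The rest of the list did not pass, and its median log2 fold change was -0.33, where that of all genes was -0.01. Higher were Relb, Runx2, Etv3, Spib, Cebpb and Ikzf1, and lower were Irf4, Klf4, Rbpj, Notch2, Stat5a, Bach2, Zeb1, Junb and Jund. With each library left out in turn, 2 to 6 were higher and 7 to 11 lower. Klf4, Rbpj, Notch2, Stat5a, Bach2, Relb and Irf4 kept their call in all of these fits. Leaving out A20iKO replicate 2 alone ended the calls of Etv3 (edgeR adjusted p = 0.0736), Ikzf1 (0.16), Junb (0.11), Jund (0.108) and Zeb1 (0.0627). Leaving out WT replicate 3 ended those of Cebpb (0.0891), Etv3 (0.0541), Ikzf1 (0.063), Junb (0.101) and Jund (0.0903). In A20iKO against WT+IFNa, 1 rose (Relb) and 4 fell (Klf4, Rbpj, Notch2 and Irf4), where 2.05% of all genes were called higher and 3.41% lower. In WT+IFNa against WT, 3 rose (Relb, Spib and Runx2) and edgeR called 0 lower, as did DESeq2 and limma-voom, where edgeR called 2.4% of all genes higher and 0.702% lower. At an unadjusted p under 0.05, 7 of the 35 differed there in either direction, against 12.7% of all genes. The names of Cebpb, Ikzf1, Stat5a, Bach2, Zeb1, Junb and Jund were picked after their values were seen.

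Among the partners of the 10 factors, Irf8, which acts with Batf3, had 429, 629.8 and 618 CPM in the A20iKO libraries, 918, 732 and 742 CPM in the WT+IFNa libraries and 918, 735 and 767 CPM in the WT libraries. The A20iKO libraries lay below all others, at a log2 difference from WT of -0.53 (SE 0.167) that missed the threshold (edgeR adjusted p = 0.0645). It passed in 6 of 20 alternatives, with adjusted p from 0.0105 (DESeq2) to 0.0472 (edgeR, genes of a mean of at least 5 CPM). Against WT+IFNa the difference was -0.51 (edgeR adjusted p = 0.11), and it passed with DESeq2 (0.022) and with no low-count filter (edgeR 0.0462). Irf4, the cDC2 counterpart of Irf8, had 45.7, 75.1 and 55.1 CPM in the A20iKO libraries, 155, 145 and 101 CPM in the WT+IFNa libraries and 204, 127 and 142 CPM in the WT libraries. It fell by 1.42 on the log2 scale in A20iKO against WT (SE 0.248, edgeR adjusted p = 0.00207). It fell by 1.19 against WT+IFNa (SE 0.247, edgeR adjusted p = 0.0122), and that call was lost without A20iKO replicate 3 (edgeR adjusted p = 0.0594) or WT+IFNa replicate 1 (0.0631) or 2 (0.0531).

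Notch2, a receptor that supports a subset of cDC2s, and Rbpj, the DNA-binding partner of Notch receptors, were also lower in A20iKO. Rbpj had 90.2, 102 and 99.5 CPM in the A20iKO libraries, 225, 214 and 219 CPM in the WT+IFNa libraries and 254, 178 and 242 CPM in the WT libraries. Its log2 fold change was -1.21 against WT (edgeR adjusted p = 0.000355) and -1.17 against WT+IFNa (edgeR adjusted p = 0.00091). Notch2 averaged 137 ± 26.2 CPM in A20iKO, 294 ± 42.9 CPM in WT+IFNa and 253 ± 3.28 CPM in WT (SD, n = 3 each).

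Relb, an NF-kB subunit needed for a part of cDC2s, moved with A20iKO and with interferon. It had 316, 329 and 320.3 CPM in the A20iKO libraries, 103, 100.2 and 93.5 CPM in the WT+IFNa libraries and 54.2, 34.1 and 24.6 CPM in the WT libraries, with no overlap between groups. It rose by 3.09 on the log2 scale in A20iKO against WT, by 1.70 in A20iKO against WT+IFNa and by 1.39 in WT+IFNa against WT (edgeR adjusted p = 4.57e-06, 0.000795 and 0.00423). Spib, a PU.1 relative active in pDCs, and Runx2, which acts in pDC egress from the marrow, stood higher in A20iKO and in WT+IFNa. Spib had 138 ± 22.3 CPM in A20iKO, 159 ± 37.7 CPM in WT+IFNa and 82.4 ± 15.9 CPM in WT. Runx2 had 160.4 ± 48.1 CPM in A20iKO, 158 ± 27.2 CPM in WT+IFNa and 74.9 ± 22.4 CPM in WT (SD, n = 3 each). In WT+IFNa against WT the edgeR adjusted p was 0.0301 for Spib and 0.0445 for Runx2. The Spib call there was lost without WT+IFNa replicate 1 (edgeR adjusted p = 0.149) or 3 (0.0848), WT replicate 1 (0.101) or 2 (0.078), or A20iKO replicate 3 (0.0522). The Runx2 call was lost without WT+IFNa replicate 1 (edgeR adjusted p = 0.147) or 2 (0.153), WT replicate 2 (0.115) or 3 (0.171), or A20iKO replicate 2 (0.0718) or 3 (0.051). In A20iKO against WT, where Spib rose by 0.75 (edgeR adjusted p = 0.0417) and Runx2 by 1.10 (0.0161), the Spib call was lost without A20iKO replicate 2 (0.19) or 3 (0.0981), WT+IFNa replicate 3 (0.0569), or WT replicate 1 (0.129) or 2 (0.0991). The Runx2 call was lost there without A20iKO replicate 2 (0.0639) or 3 (0.0847) or WT replicate 3 (0.0698).

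**Figure D4:**
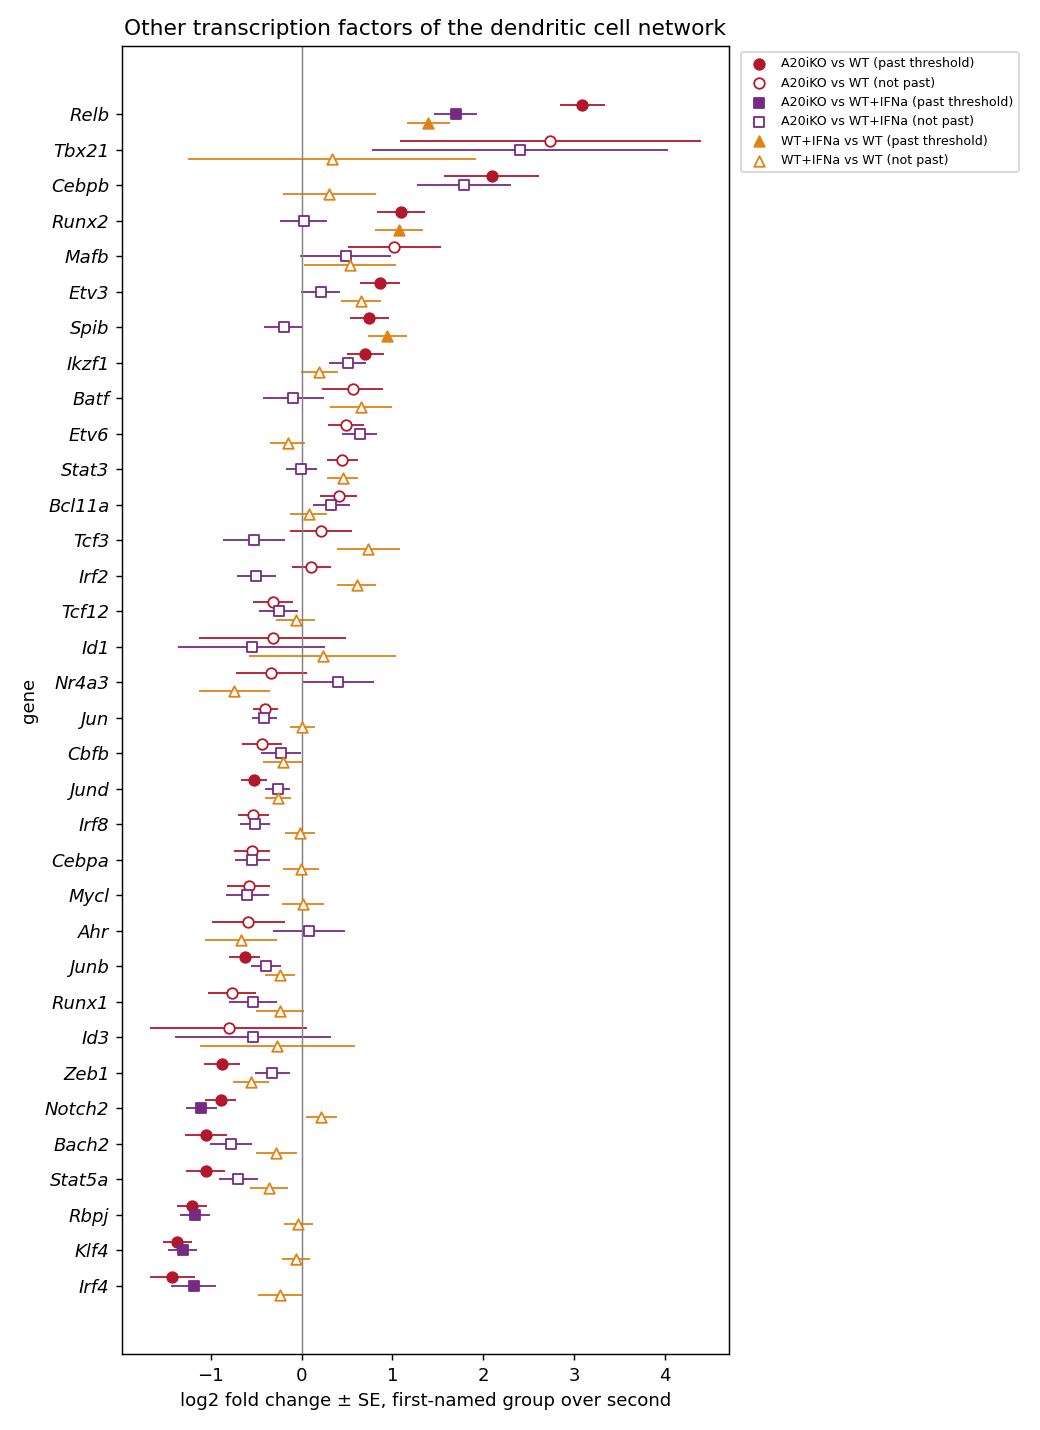
Log2 fold change (horizontal axis, first-named group over second) of 34 further network factors in A20iKO vs WT, A20iKO vs WT+IFNa and WT+IFNa vs WT, ordered by A20iKO vs WT; error bars are SE and filled symbols passed an edgeR adjusted p of 0.05. Gfi1, with no count in WT+IFNa or WT, is not drawn; Relb lies at the top and Irf4, Klf4 and Rbpj at the bottom.

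Marker genes of other cell types moved with the groups beside these factors. The 15 cDC1 markers summed to 563 to 658 CPM in A20iKO, 1105 to 1132 CPM in WT+IFNa and 1473 to 1774 CPM in WT. The largest part was Wdfy4, at 208 to 257 CPM in A20iKO, 303 to 370 CPM in WT+IFNa and 437 to 518 CPM in WT. Of the 15 markers, 9 fell in A20iKO against WT, where 4.91% of all genes were called lower. Clec9a, a cDC1 receptor for dead cells, had 2.89, 1.93 and 1.05 CPM in A20iKO, 23, 22.6 and 16.8 CPM in WT+IFNa and 26.2, 17 and 16.9 CPM in WT. The 13 cDC2 markers summed to 4656 to 5265 CPM in A20iKO, 6375 to 7278 CPM in WT+IFNa and 8670 to 11288 CPM in WT. Most of each sum was H2-Ab1, an MHC class II gene, at 3585 to 4013 CPM in A20iKO, 5076 to 5808 CPM in WT+IFNa and 7219 to 9246 CPM in WT. In A20iKO against WT, 2 of the 13 rose (Sirpa and Clec4a4) and 6 fell, where 5.77% of all genes were called higher and 4.91% lower. The median of the 13 log2 fold changes was 0.07, and the members did not share a direction. The 12 monocyte and macrophage markers summed to 3229 to 3367 CPM in A20iKO, 2322 to 2811 CPM in WT+IFNa and 1464 to 1806 CPM in WT. Ccr2 alone gave 464 to 639 CPM of this in A20iKO, 927 to 1309 CPM in WT+IFNa and 702 to 890 CPM in WT. Of the 12 markers, 8 rose and 1 fell in A20iKO against WT (5.77% and 4.91% of all genes). In A20iKO against WT+IFNa, 5 rose and 1 (Ccr2) fell (2.05% and 3.41% of all genes). In WT+IFNa against WT, 4 rose and 2 (Lyz2 and Adgre1) fell (2.4% and 0.702% of all genes). Ly6c2, a monocyte surface antigen, had 670 to 874 CPM in A20iKO, 573 to 779 CPM in WT+IFNa and 16.4 to 37.4 CPM in WT. Lyz2, a lysozyme gene, had 608 to 785 CPM in A20iKO, 111 to 146 CPM in WT+IFNa and 317 to 414 CPM in WT. The 12 markers of mature dendritic cells summed to 1708 to 1985 CPM in A20iKO, 653 to 685 CPM in WT+IFNa and 103 to 208 CPM in WT. The part of these cells or states in the changes of Id2, Bcl6, Zbtb46 and Tcf4 was not tested.

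Markers of pDCs, the cells that depend on Tcf4, went in different directions. Of 8 tested from a list of 9, 4 were higher and 2 lower in A20iKO against WT, where 5.77% of all genes were called higher and 4.91% lower. Ly6d, a surface antigen of lymphoid and pDC progenitors, averaged 109 ± 40.9 CPM in A20iKO, 12.3 ± 1.87 CPM in WT+IFNa and 5.61 ± 2.5 CPM in WT. Cox6a2 averaged 45.3 ± 1.51 CPM, 10.2 ± 0.371 CPM and 10.3 ± 3.14 CPM in the same groups. Siglech, the pDC lectin, had 52.3, 78.3 and 58.3 CPM in A20iKO, 180.2, 170.2 and 127 CPM in WT+IFNa and 273, 214 and 237 CPM in WT. Siglech fell by 1.94 on the log2 scale in A20iKO against WT (edgeR adjusted p = 4.12e-05), while Ly6d rose by 4.29 (edgeR adjusted p = 1.79e-05) and Cox6a2 by 2.14 (edgeR adjusted p = 0.000601). The summed list stood at 327 to 533 CPM in A20iKO, 443 to 619 CPM in WT+IFNa and 404 to 428 CPM in WT. Bst2 gave 107 to 195 CPM of this in A20iKO, 212 to 345 CPM in WT+IFNa and 54.5 to 92.4 CPM in WT. Of the 8, Bst2 alone was called higher in WT+IFNa against WT, by 2.03 on the log2 scale (edgeR adjusted p = 0.000714). There 0 of the 8 were called lower, where 2.4% of all genes were higher and 0.702% lower.

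Lymphoid cells also use Id2, Nfil3, Runx3 and Zeb2. The 10 markers of T, natural killer and innate lymphoid cells summed to 43 to 78.9 CPM in A20iKO, 26.5 to 33 CPM in WT+IFNa and 14.6 to 30 CPM in WT. Il7r gave 26 to 62.4 CPM of this in A20iKO, 16.2 to 27 CPM in WT+IFNa and 10.2 to 25.5 CPM in WT, while in WT replicate 2 the larger share was Gata3, at 19.8 CPM. Ncr1, a defining natural killer gene, had no count in any library, and Cd3e, of the T cell receptor complex, had none in A20iKO. The 7 B cell markers summed to 34.6 to 60.7 CPM in A20iKO, 5.99 to 19.6 CPM in WT+IFNa and 8.73 to 31.3 CPM in WT. Cd79a, a defining B cell gene, had no count in any library, while Pax5 had 20.2, 18.2 and 12.2 CPM in A20iKO, at most 1.53 CPM in WT+IFNa and at most 1.74 CPM in WT. The 9 stromal markers ranged from 404 to 3929 CPM in A20iKO, 524 to 4262 CPM in WT+IFNa and 658 to 3800 CPM in WT. Of the remaining lists, 7 basophil and mast cell markers summed to 166 to 186 CPM in A20iKO, 93.9 to 151 CPM in WT+IFNa and 23.1 to 57.9 CPM in WT, and 7 progenitor markers to 286 to 353 CPM, 71.1 to 105 CPM and 59.4 to 109 CPM in the same groups. The 11 neutrophil markers summed to 287 to 429 CPM in A20iKO, 326 to 383 CPM in WT+IFNa and 97.7 to 125 CPM in WT. Of 10 tested, 4 rose and 2 fell in A20iKO against WT (5.77% and 4.91% of all genes). Against WT+IFNa, 3 rose and 3 fell (2.05% and 3.41% of all genes). S100a9 had 3.94 to 6.53 CPM in A20iKO, 139 to 176 CPM in WT+IFNa and 47.7 to 48 CPM in WT. Prtn3 had 129 to 197 CPM, 3.36 to 10.7 CPM and 0 to 1.07 CPM in the same groups, so like sums came from different genes. The 6 erythroid markers summed to 485 CPM in A20iKO replicate 1 and to 76.8 to 117 CPM in the other 8 libraries. The part of these cells in the changes of the factors was not tested.

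**Figure D5:**
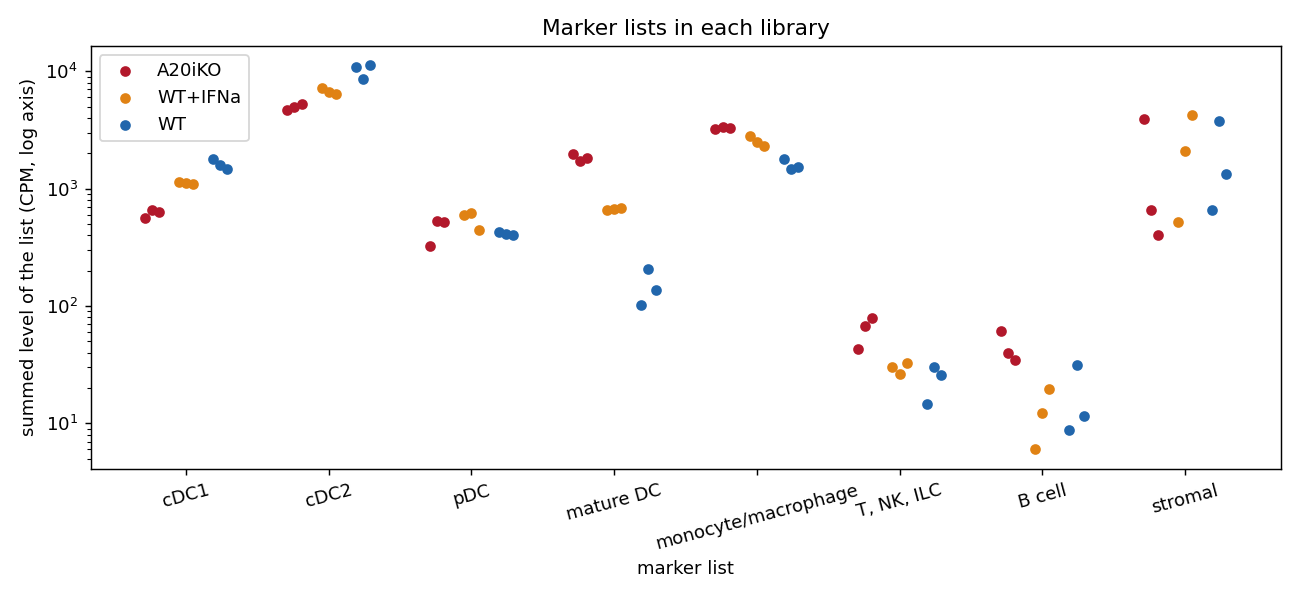
Summed level of each marker list in CPM (vertical axis, logarithmic) in every library of A20iKO, WT+IFNa and WT; points are libraries in replicate order. The cDC1 list sums to 563 to 658 CPM in A20iKO and 1473 to 1774 CPM in WT, and the mature dendritic cell list lies between 1708 and 1985 CPM in A20iKO and between 103 and 208 CPM in WT.

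Genes of like pattern were sought for the 5 factors that passed in any comparison. The measure was the root mean square difference in log2 CPM, each gene centred on its own mean, over 9 libraries and 8163 genes of at least 10 CPM. Nearest to Id2 were S100a10 (0.14), Fxyd5 (0.15) and Slc4a7 (0.16). Nearest to Bcl6 were Vhl (0.13), Vgll4 (0.17) and the interferon regulatory factor gene Irf5 (0.17). Nearest to Zbtb46 were Stx16, Cnppd1 and Use1 (0.09 to 0.11), to Tcf4 were Smc1a, Cct7 and Hpf1 (0.11 to 0.13), and to Runx3 were Atxn10, the homeobox gene Hlx and Kcnk6 (0.11 to 0.16). The factors' own root mean square deviations were 0.73 for Id2, 0.68 for Bcl6, 0.40 for Zbtb46, 0.34 for Tcf4 and 0.47 for Runx3.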

How the data were processed

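Sorted mouse cDC2s were read with a 3′ mRNA tag kit (QuantSeq FWD), per the labels' protocols. The deposited files hold whole-number counts per gene symbol, 1 file per library, which the authors did not normalize. The tools listed are featureCounts 2.0.6, STAR 2.7.10b, fastp 0.23.1 and Bowtie2, with GRCm39 as the build, per the submitters' processing notes. Their roles, the annotation, the strand setting and the handling of multi-mapping reads were not given in the sources used here. Groups and replicate numbers came from the titles.

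Genes were filtered with filterByExpr (minimum count 10, minimum total 15) and tested with edgeR 4.0.16 (quasi-likelihood, TMM) in R 4.3.3, in a joint fit of 9 libraries with 6 residual degrees of freedom. DESeq2 1.42.0 and limma 3.58.1 served as alternatives. Log2 ratios used a pseudocount of 0.5. The closest libraries of a group differed by a chi-square of 14.4 per degree of freedom, more than repeated sequencing of the same library would give. This cannot tell whether 2 libraries were made from the same RNA or culture. On counts simulated for A20iKO against WT (12556 genes), 22 of 100 genes changed 2-fold and 80 of 100 changed 4-fold were called, with 1 false call. Only these genes were changed there, while 1416 genes were called in A20iKO against WT in the data. The share recovered in the data may therefore differ. The text names the 10 factors, Tnfaip3, Irf8, Irf4, up to 4 genes per list and comparison by smallest p, and the 3 genes of nearest pattern, besides names said to be picked later. The factors and lists were chosen with earlier results of these data known. Promoters were from RefSeq, GRCm38.p6, which is not the files' build. Sirpa, Clec4a4, Ccr2, Adgre1, Clec9a, Wdfy4, Gata3, Col1a1, Gm26917, Cd3e, Cd79a, Ncr1, Lime1, Zeb2os, S100a9 and Prtn3 were named as checks or examples. Some of them were outside that rule and were named after their values were seen.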

Additional observations from a re-analysis of the deposited data

How the results depend on the processing

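Each comparison was refitted under 20 alternatives: 9 with a library left out and 11 with another scaling, filter, test, block or set of libraries. The decreases of Id2, Bcl6 and Zbtb46 in A20iKO against WT and against WT+IFNa, and the rise of Tcf4 against WT, passed in all 20. The number of factors past the threshold ran from 4 to 6 in A20iKO against WT, from 3 to 6 in A20iKO against WT+IFNa, and was 0 in every fit of WT+IFNa against WT. No call of a factor changed direction. Over all genes, DESeq2 called 705 in WT+IFNa against WT, where edgeR called 411, and 1143 in A20iKO against WT+IFNa, where edgeR called 723. With single libraries left out, the calls ran from 919 to 1372 in A20iKO against WT (main value 1416) and from 400 to 875 in A20iKO against WT+IFNa. The causes were not tested. With library totals as the only scaling, the share of higher calls was 60.9% in place of 77.4% in WT+IFNa against WT and 49.4% in place of 37.5% in A20iKO against WT+IFNa, with medians of all genes at -0.15 and 0.12 on the log2 scale. Same-numbered libraries correlated at -0.37 to 0.24 in their deviations from group means, and the other pairs at -0.31 to 0.36. Deviations from a mean of 3 libraries sum to 0, so these values cannot decide whether the numbers pair the samples. A replicate block left 4 factors past the threshold in A20iKO against WT, 4 in A20iKO against WT+IFNa and 0 in WT+IFNa against WT, with 1075, 535 and 298 genes in all. Batf2 had 0 to 60 counts per library and Nfil3 11 to 196, and both varied widely within groups, so their folds are imprecise.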
